A study of Mus musculus with 8 samples.

Results

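The mechanically gated and acid-sensing channel genes of mouse dorsal root ganglia (DRG) were followed through a carrageenan inflammation, as 9 named genes out of the 24421 in the deposited counts. They were chosen by name, though with earlier results of these data known. They comprised Piezo1 and Piezo2, the acid-sensing ion channels Asic1, Asic2 and Asic3, the stomatin genes Stom and Stoml3, and the membrane protein genes Tmem120a and Tmem150c. Of these, 8 passed the filter on low counts and were among the 17328 genes tested. Stoml3 did not pass it and is described by its counts.

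The study sequenced RNA from DRG of C57BL/6J mice, labelled WT, that were 8 weeks old by the series' description, the methods of the study giving a wider range of ages. The 1d, 3d and 30d mice had received 20 µl of 1% carrageenan, a seaweed polysaccharide that inflames tissue, in the left hind paw and were killed 1, 3 or 30 days later, whereas the 0d mice were naive and untreated. Per time point 2 libraries were made, each from the pooled ganglia L3 to L5 of the injected side of 2 to 3 mice. No vehicle-injected group is among the samples, so that carrageenan cannot be told apart from the injection itself. Mice injected at the same age would be older at death at 30d, so that there it cannot be told apart from age either. The labels speak of DRG neurons, but the RNA came from ganglia, and genes of other cells were plain in it. All 10 genes of the sensory neuron list averaged at least 1 CPM (the reads of a gene as CPM, relative to the library total after TMM scaling), as did all 6 genes of each list for satellite glia, Schwann cells, endothelium, fibroblasts, macrophages, red blood cells and skeletal muscle. In such bulk RNA, fewer cells of a type and less RNA per cell cannot be told apart.

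Piezo channels are opened by membrane tension. Piezo2 carries the mechanical currents of touch receptors and proprioceptors in the DRG, while Piezo1 is best known from blood vessels and other cells under flow or stretch. ASIC subunits form sodium channels opened by protons, and Asic3 in particular is linked to the acid of inflamed or ischaemic tissue. Stomatin family proteins bind such channels in the membrane and tune them, Stoml3 being known for sensitising touch receptors. Tmem120a (TACAN) and Tmem150c (tentonin 3) were both proposed as mechanically gated channels, a role that has been disputed for both.

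The libraries held 44123208 to 73580338 counts. Replicates correlated at r = 0.979 to 0.993 across genes on the log2 CPM scale. Replicate 2 of 30d stood apart from the others. It held 30 genes with at least 15 counts and over 4 times the CPM of every other library, against 0 to 2 such genes in each of the others. It also had the fewest genes with any count, 17710 against 18378 to 19009. Estimates at 30d against 0d are therefore also given without this library where its loss moved them by over 1.5 times.

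Per base of exon, Asic3 was the most abundant of the 9 genes and Stoml3 was close to absent. Levels between genes are compared as CPM per kb of exon, since long genes collect more reads. The median over the 8 libraries was 69.2 CPM per kb for Asic3, 53.2 for Piezo2, 33.8 for Tmem150c, 28.6 for Asic2 and 24.7 for Asic1. It was 17.5 CPM per kb for Tmem120a, 10.0 for Stom, 1.53 for Piezo1 and 0.032 for Stoml3. Asic3 lay above 94.0% of the genes tested on this scale and Piezo1 above 26.4%. Every gene was above the next one in this order in 8 of 8 libraries. The ranges of neighbours were separate except for Asic2 and Asic1, where the level of Asic2 was 1.02 to 1.22 times that of Asic1 within a library. By CPM alone, with no division by length, Piezo2 came first, at 48.3 to 52.5% of the CPM of all 9 genes.

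**Figure D1:**
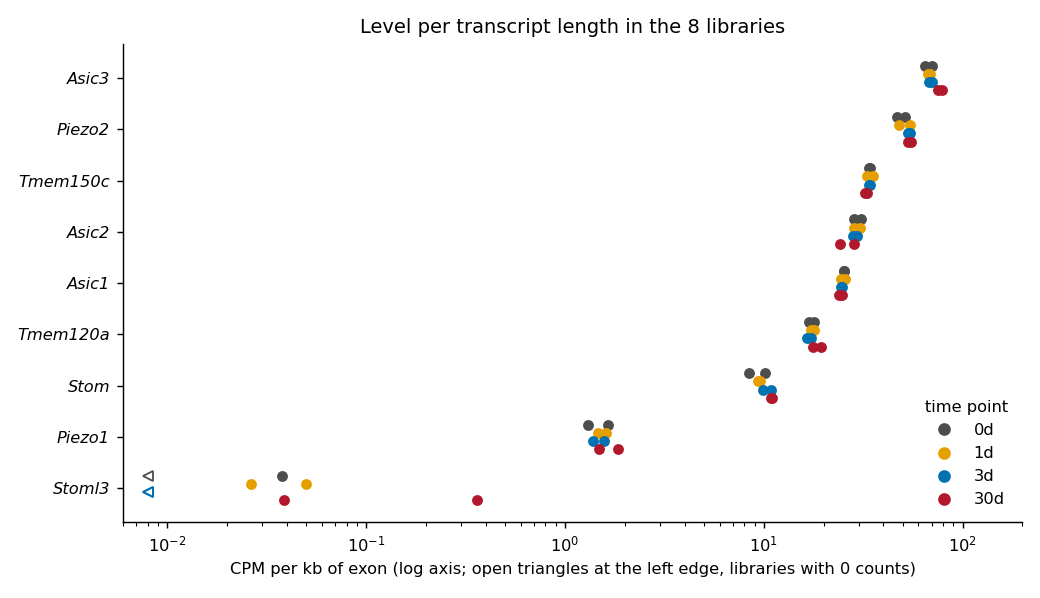
Level of each gene as CPM per kb of exon on a log axis, with a point for each of the 8 libraries coloured by time point. The genes are ordered by their median, from 69.2 for Asic3 to 0.032 for Stoml3, and open triangles at the left edge mark the libraries without a Stoml3 count (0d replicate 1 and both of 3d, drawn over each other).

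None of the 8 tested genes changed at a Benjamini-Hochberg adjusted p under 0.05 in edgeR's quasi-likelihood test, at any time point against 0d or between any other time points. At 1d against 0d, 0 of 8 were called and 0 had an unadjusted p under 0.05, when 0.346% of all genes tested were called and 4.47% had such a p. At 3d against 0d the counts were 0 called and 1 with an unadjusted p under 0.05 (Piezo2), against 0.219% and 5.94% of all genes. At 30d against 0d, 0 were called and 4 had such a p, higher for Asic3, Stom and Piezo2 and lower for Asic2, against 0.0231% and 12.3% of all genes. DESeq2 and limma-voom called 0 of the 8 in these comparisons too. All 3 comparisons use the same 0d libraries, so their values are not independent.

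The estimated changes were small at 1d and larger at 30d. The median size of the log2 fold change over the 8 genes was 0.014 at 1d, 0.040 at 3d and 0.15 at 30d, beside 0.076, 0.081 and 0.11 over all genes tested. At 1d no gene moved by more than 0.06 on the log2 scale, and the libraries of 0 of the 8 genes lay apart from both 0d libraries, which was so for 31.9% of all genes. At 3d the libraries of 2 genes lay apart, Piezo2 above and Asic1 below 0d, against 39.5% of all genes. At 30d those of 6 genes lay apart, 3 above (Asic3, Stom and Piezo2) and 3 below (Asic1, Asic2 and Tmem150c), against 39.6% of all genes. With 2 libraries a group, such a separation is easily met, as these shares show.

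**Figure D2:**
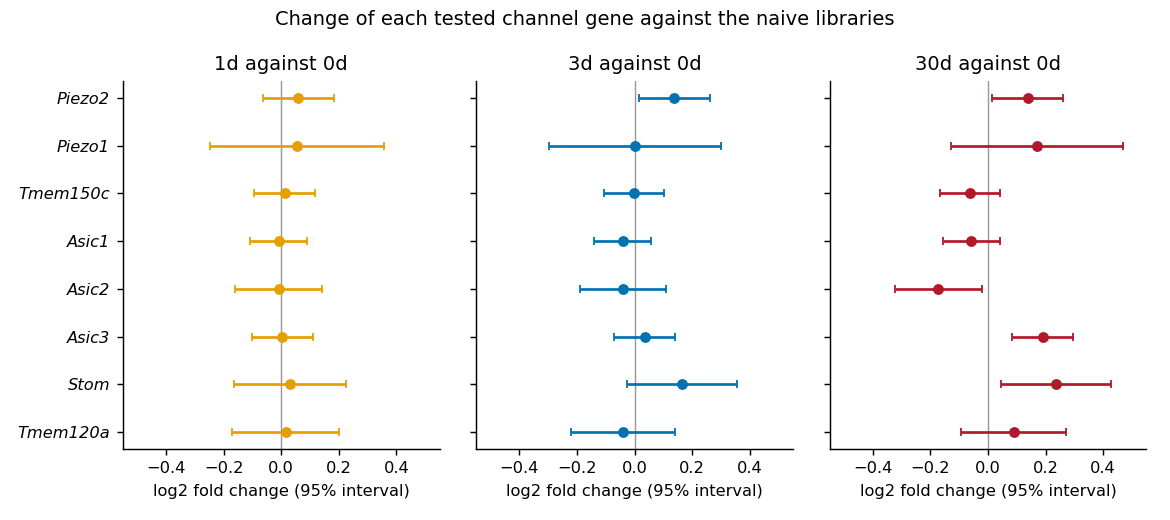
Log2 fold change of the 8 tested genes at 1d, 3d and 30d against 0d, with points for the edgeR estimate and bars for its 95% interval. At 1d all intervals include 0. At 30d those of Asic3, Stom and Piezo2 lie above 0 and that of Asic2 below 0, before adjustment for the 17328 genes tested.

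Piezo2 (chr18:63010213-63387183 in mm10, minus strand, 54 exons merged over its transcripts) was the gene with the most reads, 264063 over the 8 libraries. The 0d libraries had 548 and 503 CPM and the 1d libraries 582 and 513. At 3d it had 584 and 572 CPM, and at 30d 568 and 587. The 3d and 30d libraries were thus all above both 0d libraries. At 1d, replicate 1 was above both and replicate 2 lay between them. The log2 fold change was 0.06 (SE 0.06) at 1d, 0.14 (SE 0.06, edgeR adjusted p = 0.758) at 3d and 0.14 (SE 0.06, adjusted p = 0.357) at 30d. The 95% interval at 30d ran from a 1.01-fold to a 1.20-fold level. The 1d value turned to -0.04 without replicate 1 of 1d and to -0.00089 without replicate 2 of 0d. Without the latter library the value was 0.08 at both 3d and 30d. The 30d value was 0.06 when a trend of each library on gene length was removed, a setting chosen after seeing the data, and Piezo2 has the longest exon sequence of the 9 genes, 10724 bases.

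Piezo1 (chr8:122481698-122551329, minus strand) was expressed at a much lower level. Its 0d libraries had 13.6 and 10.8 CPM, those of 1d 13.2 and 12.02, those of 3d 12.9 and 11.4, and those of 30d 15.1 and 12.3. The replicates of 0d and those of 30d each lay farther apart than the means of these time points, and the 30d libraries overlapped those of 0d. The log2 fold change at 30d was 0.17 (SE 0.14, edgeR adjusted p = 0.653), with a 95% interval from 0.91-fold to 1.38-fold. This estimate rests on single libraries, being 0.32 without replicate 2 of 30d and 0.01 without replicate 1, and 0.35 without replicate 1 of 0d and 0.01 without replicate 2. Within a library, the level of Piezo2 per kb was 28.8 to 38.3 times that of Piezo1. Exons of Piezo1 share 990 bases (12.05% of its length) with the exons of Ctu2, a tRNA thiolation gene on the other strand. Reads were counted without strand and for every overlapping gene, so those in the shared bases were given to both genes, and Ctu2 itself had 13.3 to 17.2 CPM.

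Asic3 (chr5:24413451-24417834, plus strand, 11 merged exons), the ASIC subunit most closely linked to sensory neurons, was the gene with the smallest adjusted p of the 8. The 0d libraries had 136 and 126 CPM, the 1d libraries 130.3 and 133, and the 3d libraries 137 and 132. At 30d it had 147 and 152 CPM. Both 30d libraries were thus above all 6 others, which stayed within 126 to 137. The rise amounted to a log2 fold change of 0.19 (SE 0.05), a 1.14-fold level with a 95% interval from 1.06 to 1.23, and did not pass the test (edgeR adjusted p = 0.154). Against 1d the value was 0.19 (SE 0.05, adjusted p = 0.152) and against 3d 0.16 (SE 0.05, adjusted p = 0.177). Without replicate 2 of 30d the log2 fold change against 0d was 0.16 (adjusted p = 0.249).

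Over the 4 time points tested jointly, which asks whether a gene differed at any of them, edgeR gave 0 called genes among the 8 and 1 with an unadjusted p under 0.05, against 1.02% and 11% of all genes. That 1 gene was Asic3 (adjusted p = 0.172). Its call depended on the setting, since its adjusted p in this joint test was 0.0414 by DESeq2 and 0.0479 by edgeR without the filter on low counts.

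Asic2 (chr11:80880163-81968396, minus strand), whose subunit joins the others and shapes how the channels respond to protons, was the 1 member of the family with a lower point estimate past an unadjusted p of 0.05 at 30d. The 0d libraries had 108 and 116 CPM, those of 1d 108 and 115, those of 3d 111 and 107, and those of 30d 108 and 91.7. Replicate 1 of 30d lay within the range of the earlier libraries, and replicate 2 below it. The log2 fold change at 30d against 0d was -0.17 (SE 0.07, edgeR adjusted p = 0.347). It was -0.06 (adjusted p = 0.750) without replicate 2 of 30d, the library that stood apart, and -0.29 (adjusted p = 0.0513) without replicate 1. Leaving out replicate 1 of 30d also gave the only calls of a member between 2 time points among the alternatives run, Asic2 at 30d against 3d (-0.25, adjusted p = 0.0404) and against 1d (-0.28, adjusted p = 0.0307). RefSeq lists 2 start sites of Asic2 that lie far apart, just after chr11:81968397-81968646 and chr11:81152904-81153153 in the direction of transcription, and the deposited row does not separate their transcripts.

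Asic1 (chr15:99670718-99701130, plus strand), the subunit found throughout the nervous system, was the most even of the family. Its 8 libraries lay between 120.0 and 129.7 CPM. The 0d libraries had 127 and 127 CPM, and the 30d libraries 125 and 120.0. The log2 fold change at 30d was -0.06 (SE 0.05, edgeR adjusted p = 0.644), with a 95% interval from 0.90-fold to 1.03-fold. It was -0.03 without replicate 2 of 30d and -0.09 without replicate 1.

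The make-up of the family followed from these values. Asic3 supplied 53.7 to 56.6% of the CPM per kb of the 3 subunits in the 6 libraries of 0d, 1d and 3d, and 58.7% and 62.0% at 30d. Asic2 supplied 23.1 to 25.4% in the former and 22.1% and 19.1% in the latter. The sum of the 3 subunits stayed within 120.1 and 128.7 CPM per kb in all libraries. The level of Asic3 per kb was 2.45 and 2.11 times that of Asic2 at 0d and 2.66 and 3.24 times at 30d. The ratio within a library is free of the scaling between libraries, but it was not tested, and the larger of the 30d values comes from replicate 2.

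**Figure D3:**
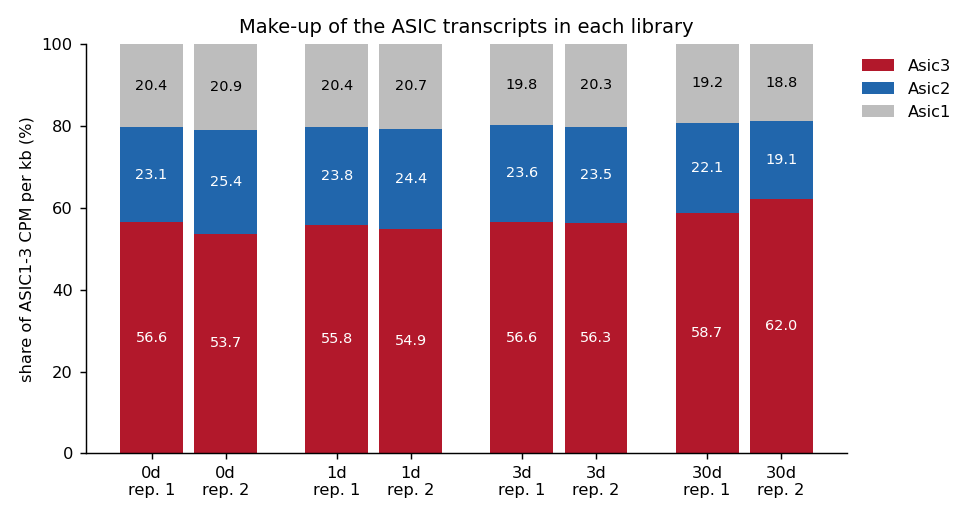
Share of each ASIC subunit gene in the CPM per kb of Asic1, Asic2 and Asic3 in each library, as stacked bars that sum to 100%. The Asic3 share is 53.7 to 56.6% in the libraries of 0d, 1d and 3d and 58.7% and 62.0% in those of 30d.

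Stom (chr2:35313990-35337009, minus strand, 7 merged exons) encodes stomatin, a membrane protein that binds ASIC channels and dampens their currents. Naive libraries had 23.7 and 28.5 CPM, those of 1d 26.5 and 27.0, those of 3d 30.5 and 28.1, and those of 30d 30.8 and 30.8. The 30d libraries were above all others, though replicate 1 of 3d came within 1 CPM of them. The log2 fold change was 0.03 (SE 0.09) at 1d, 0.16 (SE 0.09) at 3d and 0.24 (SE 0.09) at 30d, the largest of the 8 genes, with an edgeR adjusted p of 0.307 at 30d. These values rest on the spread of the 0d libraries. Without replicate 1 of 0d they were -0.09, 0.04 and 0.11 at 1d, 3d and 30d, and without replicate 2 they were 0.17, 0.30 and 0.38.

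Stoml3 (chr3:53488793-53507652, plus strand), the stomatin family member known from touch receptors, had 29 counts in all 8 libraries together. Counts at 0d were 0 and 2, those of 1d 2 and 1, those of 3d 0 and 0, and those of 30d 2 and 22. In all but 1 library the count was at or under the floor of 3 counts, which corresponds to 0.041 to 0.068 CPM. The exception was replicate 2 of 30d, with 0.314 CPM. Without the filter on low counts, the edgeR adjusted p of Stoml3 ranged from 0.271 to 1 over the 6 comparisons. Among the other libraries, no difference in Stoml3 was detectable at this depth.

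The stretches before the start sites of the stomatin genes are shown because these family members lie 2 places from each other near the bottom of the order of levels yet hold 13439 and 29 counts in all. They are the 250 bases upstream of the RefSeq start (GRCm38.p6, the same assembly as mm10), written 5′ to 3′ on the strand of the gene, with the CpG dinucleotides in capitals. Neither stretch overlaps an exon of the deposited annotation. That of Stom ends at the start of the deposited gene, but the nearest GENCODE transcript of Stom starts 33 bases after the RefSeq start. For Stoml3 this distance is 20 bases, and the deposited gene starts only at chr3:53488793. The deposited row of Stoml3 covers 864 bases, whereas its longest GENCODE transcript holds 1731 distinct stretches of 50 bases. Its counts therefore do not cover all of that transcript. They are chr2:35337010-35337259 (minus strand) for Stom and chr3:53488457-53488706 (plus strand) for Stoml3.
Stom: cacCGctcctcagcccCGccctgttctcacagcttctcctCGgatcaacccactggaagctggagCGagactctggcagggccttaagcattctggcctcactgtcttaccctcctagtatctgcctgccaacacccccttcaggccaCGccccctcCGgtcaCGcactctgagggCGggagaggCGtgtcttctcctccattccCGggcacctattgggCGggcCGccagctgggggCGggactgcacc
Stoml3: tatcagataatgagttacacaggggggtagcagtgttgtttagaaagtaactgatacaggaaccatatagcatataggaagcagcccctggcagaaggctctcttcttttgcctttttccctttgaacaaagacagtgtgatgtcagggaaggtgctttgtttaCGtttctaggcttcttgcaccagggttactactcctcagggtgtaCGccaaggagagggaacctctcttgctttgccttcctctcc
The stretch of Stom held 13 CpG and that of Stoml3 2, where the median over 32851 listed promoters was 6 and 92.1% held at least 1. Neither contained TATAAA on either strand, which 12.4% of the listed promoters did. RefSeq entries were taken for 8 of the 9 genes. Piezo2 was left out beforehand, so its absence says nothing about what RefSeq lists.

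Tmem120a (chr5:135735490-135744172, minus strand) and Tmem150c (chr5:100077873-100159808, minus strand) varied little, the highest of the 8 libraries being 1.17 and 1.10 times the lowest. For Tmem120a the 0d libraries had 21.7 and 22.9 CPM, those of 1d 22.2 and 22.8, those of 3d 22.2 and 21.1, and those of 30d 22.6 and 24.8. Its 30d libraries overlapped those of 0d, and the log2 fold change at 30d was 0.09 (SE 0.09, edgeR adjusted p = 0.706). Without replicate 2 of 30d it was 0.02, and without replicate 1 of 30d 0.15. For Tmem150c the 0d libraries had 105 and 106 CPM, those of 1d 109.8 and 102, those of 3d 104 and 106, and those of 30d 101 and 100.025. Its log2 fold change at 30d was -0.06 (SE 0.05, adjusted p = 0.634), with a 95% interval from 0.89-fold to 1.03-fold, although both 30d libraries were below all others. Exons of Tmem150c share 212 bases (6.88% of its length) with Tmem150cos on the other strand, whose 14.2 to 17.2 CPM cannot be kept apart from it in those bases.

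**Figure D4:**
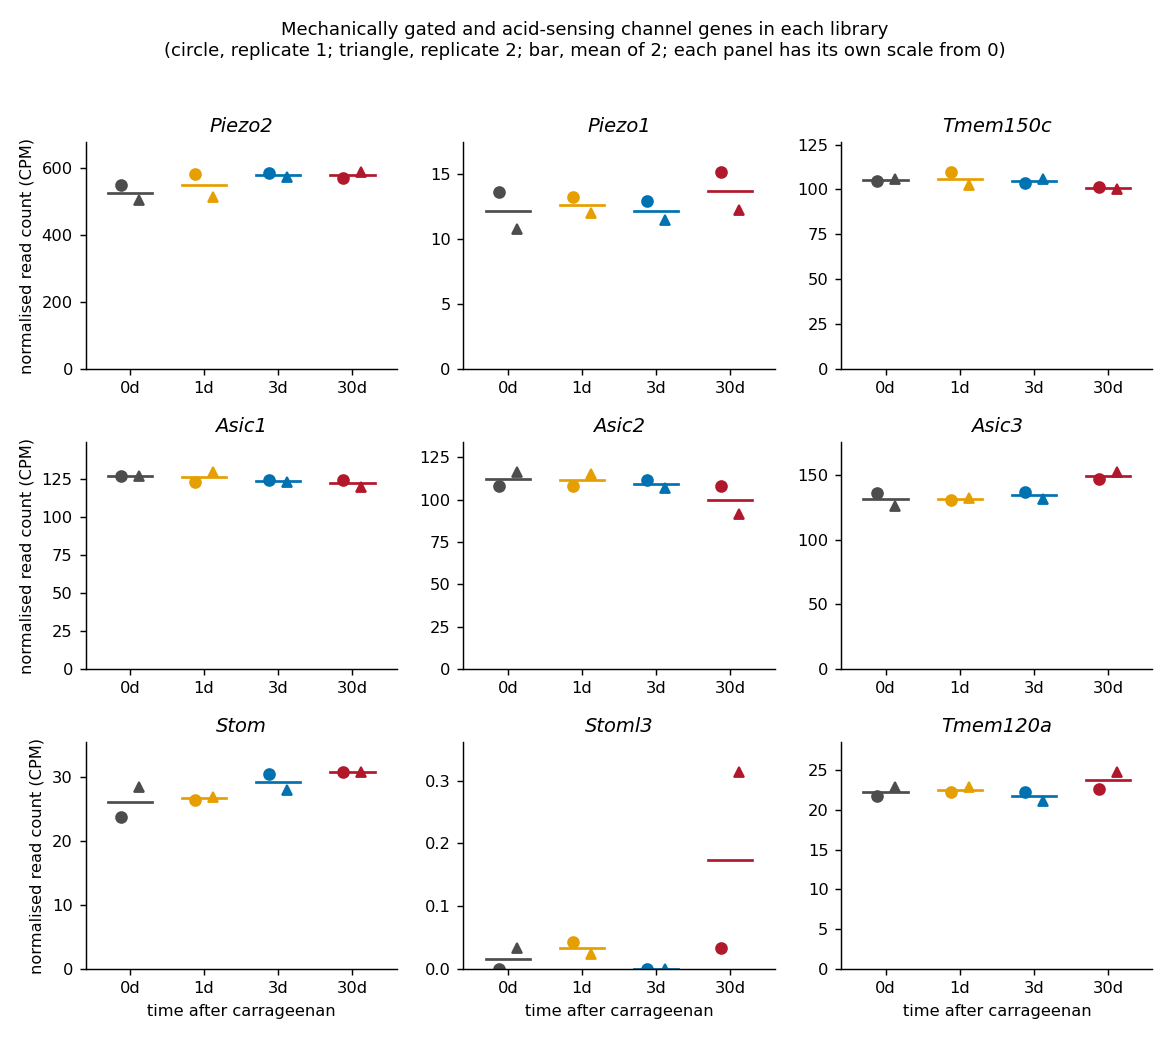
CPM of each of the 9 genes in every library, with a circle for replicate 1, a triangle for replicate 2 and a bar for their mean, and a scale from 0 of its own in each panel. Asic3 (147 and 152 CPM) and Stom (30.8 and 30.8) are highest at 30d, Asic2 is lowest in replicate 2 of 30d (91.7 CPM), and Stoml3 exceeds 0.3 CPM in that library alone.

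The steps between the times after injection were tested as well. At 3d against 1d, 0 of the 8 genes were called and 0 had an unadjusted p under 0.05, against 0.289% and 4.24% of all genes. At 30d against 3d, 0 were called and 1 (Asic3) had such a p, against 0.935% and 13% of all genes. At 30d against 1d, 0 were called and 3 (Asic2, Asic3 and Stom) had such a p, against 0.571% and 11.7% of all genes. Piezo2 did not move between 3d and 30d beyond its interval, which ran from 0.92-fold to 1.09-fold.

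The spread over the 8 libraries, time points and pools together, differed between the genes. The coefficient of variation was 2.44% for Asic1, 2.94% for Tmem150c, 5.91% for Piezo2, 8.87% for Stom and 10.8% for Piezo1. The 95% intervals at 30d against 0d extended 0.10 on the log2 scale to either side for the tightest gene and 0.30 for the widest, Piezo1.

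**Figure D5:**
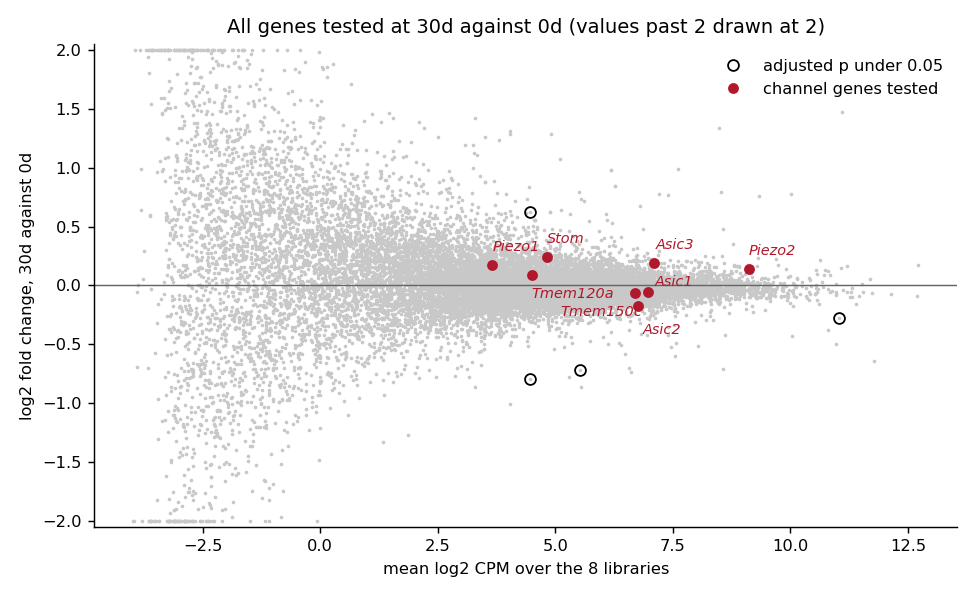
Log2 fold change at 30d against 0d of all 17328 genes tested against their mean log2 CPM, with the 8 tested channel genes as filled points and the 4 called genes circled. The channel genes lie between -0.17 and 0.24, inside the cloud of the other genes.

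Other genes of the same pathways were examined as lists, chosen with earlier results of these data known. Of 16 other mechanically gated ion channel genes, all tested, edgeR called 1 in 2 of the 96 tests over the 6 comparisons, and 12 of these tests had an unadjusted p under 0.05. Over all genes tested, 0.397% of the tests in the 6 comparisons were called and 8.61% had such a p. The gene was Trpa1, the irritant receptor of nociceptors. The 0d libraries had 57.1 and 58.8 CPM, those of 1d 63.2 and 65.3, those of 3d 69.1 and 69.2, and those of 30d 52.9 and 54.4, with no overlap between time points. It fell by 0.37 (SE 0.05, adjusted p = 0.00491) on the log2 scale from 3d to 30d and by 0.26 (SE 0.05, adjusted p = 0.0477) from 1d to 30d. Over the 96 tests DESeq2 called 3 and limma-voom 1, the latter calling no gene of the list from 1d to 30d. The genes of this list with the largest estimates against 0d, Tmc2 (-1.20 at 3d, SE 0.75) and Tmc1 (-0.66 at 3d, SE 0.56), were under 1 CPM and not called.

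Of 15 genes for partners and regulators of these proteins, edgeR called 0 in 90 tests, 12 of which had an unadjusted p under 0.05, and DESeq2 called 1 and limma-voom 0, beside the same 8.61% over all genes. Of the other acid sensors, entered under 13 symbols of which 12 had a row, 11 were tested. EdgeR called 0 in 66 tests, 4 of which had an unadjusted p under 0.05, and DESeq2 and limma-voom called 0. Asic4 (-0.83 at 1d, SE 0.50) and the proton-sensing receptor gene Gpr132 (0.77 at 30d, SE 0.70) had the largest estimates, with time-point means under 1 CPM. The median log2 fold change at 30d against 0d was 0.03, 0.06 and 0.06 in the 3 lists, beside 0.00 over all genes.

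Markers of the cells that hold these channels moved as follows. In the touch and proprioceptor list, 1 of 10 genes was called, Pvalb, a marker of proprioceptors, which fell by 0.33 (SE 0.05, edgeR adjusted p = 0.0237) at 3d. Against 0d, 0 of its 10 estimates were above 0 at 1d, 0 at 3d and 1 at 30d, with medians of -0.07, -0.05 and -0.05 on the log2 scale beside 0.00 over all genes. In the nociceptor list, 3 of 8 were called. Over all genes, 0.219% were called at 3d against 0d and 0.935% at 30d against 3d. Calca, the CGRP gene, rose by 0.32 (SE 0.05, adjusted p = 0.0237) and Scn10a, the sodium channel Nav1.8, by 0.22 (SE 0.04, adjusted p = 0.0499) at 3d. Calca then fell by 0.43 (adjusted p = 0.00201) and Tac1, the substance P gene, by 0.28 (adjusted p = 0.011) from 3d to 30d. The summed CPM of the nociceptor list was 3072 to 3306 at 0d, 3645 to 3658 at 3d and 3045 to 3182 at 30d, and that of the touch list 4126 to 4481, 4196 to 4301 and 3983 to 4256.

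At 30d, where the channel genes differed most from 0d, the summed CPM of the 10 sensory neuron genes was 10495 to 10646, against 10669 to 11144 at 0d. Satellite glia summed to 3138 to 3265 against 3696 to 3733, with Apoe called in 1 of 6 genes (-0.28, SE 0.04, edgeR adjusted p = 0.0322), where 0.0231% of all genes were called. DESeq2 called 3 of the 6 and limma-voom 1, and with libraries scaled to the sensory neuron genes the edgeR call was lost, with 0 called over all genes. Schwann cell genes summed to 5488 to 7742 against 7950 to 10824, and red blood cell genes to 286 to 544 against 146 to 294. In both lists edgeR, DESeq2 and limma-voom called 0 of 6 genes, with 0 at an unadjusted edgeR p under 0.05. The part of these shifts in the values of the channel genes was not tested. Scaled to the counts of the sensory neuron genes, the log2 fold changes at 30d were 0.23 for Asic3, 0.29 for Stom, 0.18 for Piezo2 and -0.13 for Asic2. Their edgeR adjusted p values were then 0.297, 0.351, 0.543 and 0.558. For the other tested genes the values were 0.21 for Piezo1, 0.13 for Tmem120a, -0.01 for Asic1 and -0.02 for Tmem150c.

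Elsewhere among the marker lists, edgeR called against 0d Lum at 1d (-0.49, SE 0.09, adjusted p = 0.0326), a connective tissue gene, Cx3cr1 at 3d (-1.02, SE 0.14, adjusted p = 0.00794), a macrophage gene, and the muscle myosin gene Myh1 at 1d and 3d (-1.47 and -1.61). Over all genes, 0.346% were called at 1d and 0.219% at 3d against 0d. Limma-voom called no gene of the connective tissue list at 1d and none of the muscle list at 1d or 3d. In the lists for endothelium, Schwann cells, red blood cells, all sensory neurons and C-fibre low-threshold mechanoreceptors edgeR called 0, with 0 of 36, 1 of 36, 0 of 36, 8 of 60 and 4 of 24 tests at an unadjusted p under 0.05, beside 8.61% over all genes, and DESeq2 called 2 and limma-voom 1, all in the sensory neuron list.

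The genes whose log2 CPM followed each member most closely over the 8 libraries were found among 14644 tested genes with a mean of at least 1 CPM. For Piezo2 they included Atrn (Pearson r = 0.980, Spearman rho = 0.976) and Scn9a (0.971 and 0.690), the sodium channel Nav1.7. For Asic3 they included Mrvi1 (r = 0.975) and Rapgef2 (r = 0.969), and for Asic2 they were Rpl29 (r = 0.990), Ddr1 (r = 0.989) and 2200002D01Rik (r = 0.983). With 8 libraries many genes reach such values. Between 12 genes, for Tmem150c, and 156 genes, for Asic2, passed r = 0.9. Of the other members, Piezo1 was closest to Irf3, Syt17 and Slc6a20a, Asic1 to Dync1li1, Wdr83 and Dolk, and Stom to Apaf1, Klc4 and Gins2. Tmem120a was closest to Pop7, Arl6ip4 and Zer1, and Tmem150c to Zbtb5, Map3k14 and Rgs20, with r from 0.936 to 0.973 over these 15 genes.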

How the data were processed

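RNA from pooled DRG of 8 libraries was sequenced in pairs of reads. The authors removed adapters (cutadapt 2.10), mapped to mm10 (STAR 2.7.5a) and obtained counts per UCSC gene (featureCounts 2.0.1), without regard to strand and with a read in overlapping genes counted for each (versions per the submitters' processing notes). The deposited counts are whole reads per gene, with no filter or normalization. Columns carry the sample titles, and time points and replicates come from the labels.

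Counts were filtered with filterByExpr, scaled by TMM and fitted over all 8 libraries with edgeR 4.0.16 (quasi-likelihood, robust) in R 4.3.3, with time point as the only term. P-values were adjusted by Benjamini-Hochberg over the 17328 genes tested, with 0.05 as the threshold. Each standard error is the absolute log2 fold change over the root of its F statistic. CPM per kb uses the deposited gene length. Log2 CPM has a prior count of 2. The tests set differences between time points against the spread between pools of mice. In the fit, the spread of each gene was drawn towards that of other genes. For the 8 tested genes this gave 12.6 to 14.5 degrees of freedom. Depth left a counting floor of 3 counts per library, which covers counting error only, whereas the 95% intervals of fold changes come from the fit and include the spread between pools.

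Alternatives were DESeq2 1.42.0, limma-voom (limma 3.58.1), other scalings, filters and thresholds, a replicate term, each comparison fitted alone, each library left out, and, chosen after seeing the data, trends on GC content and gene length removed. Genes named are the 9 members, every gene of the wider and marker lists past the threshold in any of the 6 comparisons, the 2 with the largest change against 0d of each wider list, and the 3 genes most correlated with each tested member. Results for some genes that this rule names are not reported here. The members and lists were chosen with earlier results of these data known. Shared exon bases were read from the deposited annotation, and shared stretches of 50 bases were sought in GENCODE transcripts of GRCm38, where Stoml3 alone shared any, 0.693% with Tnnt1.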

Additional observations from a re-analysis of the deposited data

Results flagged for a closer look

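Stoml3, which is outside the tests, had 22 counts in replicate 2 of 30d and 0 to 2 in every other library. It is listed because this signal lies above the floor of 3 counts in 1 library of a gene that no comparison uses. The same library held 30 genes that were high in it alone, against 0 to 2 in the others. How these 2 facts are related was not tested.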

How the results depend on the processing

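The 48 log2 fold changes (8 genes, 6 comparisons) were recomputed under 13 other settings and with each of 8 libraries left out, 1008 values in all. The sign was kept in 960 of them, and 42 of the sign changes were in values within 1 standard error of 0, which were not counted as reversals. Part of the 960 could hardly change sign. The threshold of 0.10 and the fit without robust estimation leave the log2 fold changes as they were. Leaving out a 1d or 3d library moved the Asic3 value at 30d against 0d only to between 0.189 and 0.191. The 6 reversals were Asic1 at 30d against 1d scaled to sensory neuron genes (0.0116) and 5 of Piezo2. These were 30d against 1d with the gene length trend removed (-0.0237), and values with 1 library left out, which ranged from -0.0351 to 0.149 at 1d against 0d, from -0.0108 to 0.173 at 3d against 1d and from -0.0122 to 0.171 at 30d against 1d. The number of the 8 genes called stayed at 0 except in the joint test, where it was 1 (Asic3) by DESeq2 and 1 without the filter, and between 30d and both 3d and 1d, where leaving out each library in turn gave 0 to 1 (Asic2, without replicate 1 of 30d). Samples with the same replicate number did not deviate together (r from -0.014 to 0.044 between groups), so the numbers were not taken as pairs. With a replicate block 0 of the 8 genes were called in any comparison, and the genes called at 30d against 0d over the whole table rose from 4 to 69. Over all alternatives that count ran from 0 (scaled to sensory neuron genes) to 202 (without replicate 2 of 30d), those at 1d and 3d against 0d from 26 to 111 and from 1 to 121, that between 1d and 3d from 5 to 260, that between 3d and 30d from 12 to 525, that between 1d and 30d from 32 to 359, and that of the joint test from 51 to 512. The causes were not tested. Without length, ranks by level moved for 6 of the 9 genes, and by Spearman's rho 0 to 2 of the 3 most similar genes of each member were kept. With 2 pools a group, the 95% intervals at 30d against 0d reach 0.10 to 0.30 to either side on the log2 scale, and Stoml3 is below what this depth can compare.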
